A study of Mus musculus with 18 samples.

Results

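The BCL2 family decides whether a cell's mitochondria stay sealed or release the proteins that start apoptosis. The genes described here are 10 of its members, chosen by name, out of 45706 genes listed in each library. They are the survival genes Bcl2, Bcl2l1 (BCL-XL) and Mcl1, the effector genes Bax and Bak1, and the BH3-only genes Bcl2l11 (BIM), Bbc3 (PUMA), Pmaip1 (NOXA), Bad and Bid. All 10 were found in the tables and all 10 passed the filter on low counts. In GRCm38 they lie on chromosomes 1 (Bcl2, 106538178 to 106714274), 2 (Bcl2l1, 152780668 to 152831728, and Bcl2l11, 128126038 to 128162547), 3 (Mcl1, 95658788 to 95663176), 6 (Bid, 120891930 to 120916853), 7 (Bax, 45461697 to 45466898, and Bbc3, 16308393 to 16318205), 17 (Bak1, 27019810 to 27029009), 18 (Pmaip1, 66458533 to 66465565) and 19 (Bad, 6941861 to 6951899).

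Survival proteins hold the effectors BAX and BAK in check at the outer mitochondrial membrane. BH3-only proteins respond to stress or to loss of growth signals and either block the survival proteins or act on the effectors directly, after which BAX and BAK form pores, cytochrome c leaves and caspases are cut. In T cells BCL2 is kept up by IL-7 and IL-15, BCL-XL rises after antigen, MCL1 is needed throughout life, and BIM removes cells at the end of a response.

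RNA was sequenced from OT-I CD8+ T cells, whose transgenic T cell receptor recognises an ovalbumin peptide, isolated from mouse spleen by negative selection. Repeat peptide stimulated cells received the peptide at 10 ng/ml daily over the first 5 days with IL-15 and IL-7, an in vitro model of exhaustion, and the peptide stayed in the medium until harvest. Single peptide stimulated cells were exposed to it once at the start, washed and rested. From day 5 to day 8 both were given DMSO, the solvent, or 1 µM ibrutinib, a covalent inhibitor of BTK and related kinases, which gave repeat DMSO (n = 4), repeat ibrutinib (n = 5), single DMSO (n = 5) and single ibrutinib (n = 4). Letters A to F name the experiment a library came from: each of A to D supplied all 4 groups, whereas E supplied repeat ibrutinib alone and F single DMSO alone. The strain entry of the labels calls all mice wild type, while for B, C, D and E the genotype entry mentions a btk knockout. The paper describes no btk-deficient cells for the sequencing, so the entry is read here as the name of an experiment. That reading was not tested. Since the cells were stimulated and treated in culture, these groups are a model of repeated antigen and not of exhaustion in an animal, and in RNA from a bulk culture a smaller number of cells of a type and less RNA per cell cannot be told apart.

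Libraries held 23445922 to 51995372 expected counts (median 27420966). All 5 CD8 T cell markers had counts, with a summed level of 2258 to 3152 TPM (a level scaled for gene length and library) over the libraries. B cell markers summed to at most 7.1 TPM, myeloid and dendritic cell markers to at most 6.23 TPM, CD4 T cell markers to at most 8.75 TPM and erythroid markers to at most 1.84 TPM. NK cell markers, all 5 with counts, summed to 26.3 to 60.8 TPM in single DMSO, 17.6 to 36.8 in single ibrutinib, 336.9 to 411.2 in repeat DMSO and 269.8 to 377.3 in repeat ibrutinib libraries. Among them Klrc1, which activated CD8 T cells also carry, was higher in repeat than single DMSO cells by 4.43 on the log2 scale, Eomes was at -3.64, and the defining NK receptor gene Ncr1 averaged 5 normalized counts over the libraries, against 5853 for Klrc1. By the test described below, 4 NK cell markers were tested in repeat against single DMSO cells. Of these 2 passed as higher, beside 22.8% of all genes, 1 as lower, beside 24.2%, and 1 did not pass. Of the B cell markers Ms4a1 and Pax5 were at 0 in single DMSO and Cd79a in repeat DMSO cells. The part of such cells in the results was not tested. Repeat ibrutinib replicate E differed more from the other libraries of its group (chi-square per degree of freedom 133 to 213) than those differed from each other (31.5 to 129), so counts are also given without it.

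Promoter sequences from RefSeq (GRCm38.p6) were on hand for 9 of the members, Pmaip1 being left out, and the 250 bases before each of their 15 starts were searched on both strands for 4 motifs. These were a forkhead motif (TGTTTAC), a STAT motif (TTCNNNGAA), an AP-1 motif (TGANTCA) and a GC box (GGGCGG). They are found in 3.17%, 7.02%, 6.75% and 32.7% of all 32851 promoters of that length in the table. Among the members' promoters the forkhead motif occurred once in the first Bcl2l11 promoter and once in 1 of 3 Bbc3 promoters, and no STAT or AP-1 match was found. Sequences are shown 5' to 3' on the gene's strand for these 2, picked after the search because Foxo1, a forkhead factor gene, is measured below, together with Bcl2 (chr1:106714291-106714540, minus strand) and Bak1 (chr17:27028628-27028877, minus strand), a survival and an effector gene that changed in opposite directions with repeat peptide. Capitals mark motif matches. The Bcl2l11 window is chr2:128125788-128126037 and the Bbc3 window chr7:16310011-16310260, both on the plus strand. Bcl2 held 7 GC boxes and Bak1 held no match to any of the motifs. At the Bbc3 start shown, unlike the other 3, the bases after the start were found in no GENCODE M21 transcript of the gene. A match describes letters only, and no binding was measured.
Bcl2: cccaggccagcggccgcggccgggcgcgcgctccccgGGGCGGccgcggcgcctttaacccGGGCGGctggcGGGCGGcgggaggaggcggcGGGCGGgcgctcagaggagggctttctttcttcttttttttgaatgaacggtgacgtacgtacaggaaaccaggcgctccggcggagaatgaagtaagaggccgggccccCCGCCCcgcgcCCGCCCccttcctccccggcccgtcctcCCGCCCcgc
Bak1: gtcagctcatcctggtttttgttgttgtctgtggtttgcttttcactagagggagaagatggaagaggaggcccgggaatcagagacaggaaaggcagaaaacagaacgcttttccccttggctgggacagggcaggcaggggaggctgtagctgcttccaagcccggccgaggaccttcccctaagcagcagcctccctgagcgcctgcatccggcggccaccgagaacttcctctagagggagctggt
Bcl2l11: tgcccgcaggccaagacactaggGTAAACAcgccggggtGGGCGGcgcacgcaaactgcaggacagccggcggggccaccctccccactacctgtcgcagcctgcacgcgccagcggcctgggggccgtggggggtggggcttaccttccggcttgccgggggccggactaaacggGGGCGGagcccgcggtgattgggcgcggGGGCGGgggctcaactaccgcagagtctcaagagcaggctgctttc
Bbc3: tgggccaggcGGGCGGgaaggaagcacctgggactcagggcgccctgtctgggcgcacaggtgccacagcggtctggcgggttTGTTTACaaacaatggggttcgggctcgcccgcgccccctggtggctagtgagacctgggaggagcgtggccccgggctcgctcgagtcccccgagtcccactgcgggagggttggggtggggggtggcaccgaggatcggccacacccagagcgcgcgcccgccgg

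Bax was the most abundant member in every group by mean TPM, followed by Mcl1. In single DMSO cells the level of Bax averaged 224 ± 32.6 TPM (SD, n = 5), Mcl1 159 ± 24.3, Bcl2 134 ± 29.4 and Bcl2l11 70.9 ± 16.7. Bak1 at 45.4 ± 5.88 and Bbc3 at 44.4 ± 16.2 TPM came next and did not differ beyond their spread. Bcl2l1 (24.7 ± 8.56), Bad (23.4 ± 3.8), Bid (18.2 ± 2.67) and Pmaip1 (13.4 ± 2.74) were the least abundant. Mcl1 and Bcl2, and Bcl2l1 and Bad, lay within their spread of each other, while Bax stood above Mcl1, Bad above Bid and Bid above Pmaip1 by more than 1 SD of either. In repeat DMSO cells the order changed: Bcl2l11 (103 ± 28.8 TPM, n = 4) stood above Bcl2 (92.2 ± 19.4), though within the spread, Bcl2l1 at 47.2 ± 10.9 stood above Bbc3 at 23.6 ± 5.13, and Bid was last at 14.4 ± 1.62. In repeat ibrutinib cells Bcl2l11 (111 ± 45.6 TPM, n = 5) and Bcl2 (111 ± 32.6) had nearly the same mean, and Bcl2l1 (32.0 ± 4.97) and Bbc3 (32.3 ± 11.1) met. Single ibrutinib cells kept the 4 leading genes of single DMSO cells in the same order.

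**Figure D1:**
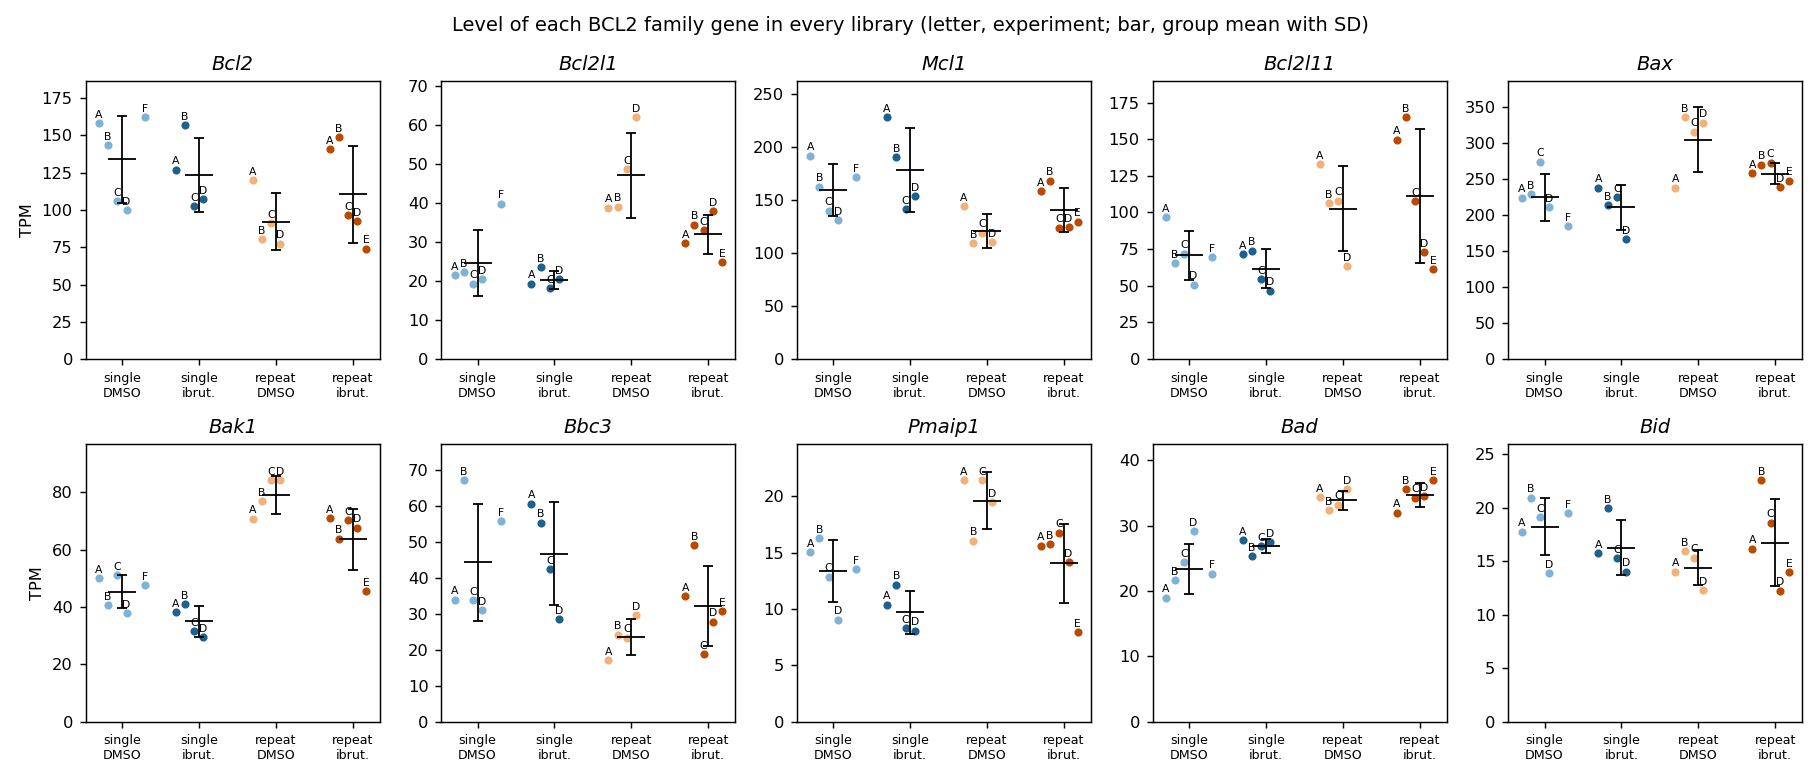
TPM of each of the 10 members (y axis, from 0) in the 4 groups (x axis); points are libraries lettered by experiment, and bars are group means with SD. Bak1 lay at 70.8 to 84.3 TPM in repeat DMSO cells and 37.8 to 51.0 TPM in single DMSO cells, and Bcl2l1 of single DMSO replicate F (39.9 TPM) stood above the other 4 single DMSO libraries (19.3 to 22.2 TPM).

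Repeat against single peptide with DMSO asks how the family differs between cells kept with antigen and rested cells. Bcl2l1, Bak1 and Pmaip1 were higher and Bcl2, Mcl1, Bbc3 and Bid were lower in repeat DMSO cells, so that survival and death genes moved in both directions. This was 7 of 10 members, beside 47.0% of all 12255 genes tested, with 3 members higher beside 22.8% of all genes and 4 lower beside 24.2%. The median log2 fold change of the members was 0.22. The median over all genes was 0.00. To be called, a gene needed an adjusted p below 0.05 (edgeR quasi-likelihood test), a log2 fold change beyond 0.2 in size and 50 or more normalized counts on average. Normalized counts are scaled to the mean library size.

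Among the survival genes, Bcl2 was at 24416, 23691, 20468, 21370 and 27060 normalized counts in single DMSO replicates A, B, C, D and F, and at 17550, 13376, 14631 and 12819 in repeat DMSO replicates A to D. Every repeat library was below every single library, and the log2 fold change was -0.68 (SE 0.122, adjusted p = 0.000142), or 1.6-fold lower. Mcl1, whose short-lived protein must be made continually, was at 14073, 12743, 12667, 13021 and 13566 in single DMSO and at 9751, 8821, 8808 and 8556 in repeat DMSO cells. These groups did not overlap either, with a log2 fold change of -0.56 (SE 0.102, adjusted p = 0.000182). Bcl2l1 went the other way. It was at 1004, 1099, 1147, 1302 and 2003 normalized counts in single DMSO and at 1759, 2010, 2268 and 2817 in repeat DMSO cells. The groups overlapped only through single DMSO replicate F, the library from the experiment with no repeat partner. The log2 fold change was 0.76 (SE 0.181, adjusted p = 0.00181), and without replicate F it was 0.96 (adjusted p = 5.67e-05).

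Of the effectors, Bak1 was at 2321, 2013, 2437, 2357 and 2378 normalized counts in single DMSO and at 3007, 3871, 3984 and 3966 in repeat DMSO cells, with no overlap. Its log2 fold change of 0.69 (SE 0.0998, adjusted p = 1.71e-05) had the smallest adjusted p among the members. Bax was at 2375 to 4104 and 2714 to 4360 normalized counts in the same groups, which overlapped widely (log2 fold change 0.23, 95% interval -0.14 to 0.60, adjusted p = 0.285).

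Of the BH3-only genes, Bbc3, which p53 and FOXO factors can induce, was at 1115, 1917, 1218, 1235 and 1449 normalized counts in single DMSO and at 463, 753, 637 and 875 in repeat DMSO cells. All repeat libraries were lower, and its log2 fold change of -1.02 (SE 0.221, adjusted p = 0.000765) was larger in size than that of any other member. Bid, which caspase-8 cuts to link death receptors to mitochondria, was at 764 to 956 in single and 569 to 716 in repeat cells with no overlap (log2 fold change -0.46, SE 0.134, adjusted p = 0.00792). Pmaip1, whose protein mainly binds MCL1, was at 826, 972, 872, 685 and 800 in single DMSO and at 1083, 969, 1181 and 1131 in repeat DMSO cells. The groups overlapped by 1 library on each side, and the log2 fold change was 0.39 (SE 0.12, adjusted p = 0.00985). Bcl2l11 was at 9327, 6648, 7437, 6219 and 7054 in single DMSO and at 10968, 10590, 9305 and 5957 in repeat DMSO cells, where replicate D was the lowest of all 9 libraries. It did not pass the test (log2 fold change 0.33, SE 0.18, adjusted p = 0.134) but did without replicate D (0.49, adjusted p = 0.0227) and with the experiment as a block (0.29, adjusted p = 0.0271), which made 8 members called beside 53.6% of all genes. Bad, which phosphorylation by survival kinases silences, did not pass (0.21, SE 0.198, adjusted p = 0.386).

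The counts and the TPM differed on some of these genes. In TPM, repeat and single DMSO libraries overlapped for Bcl2, Mcl1 and Bid, and did not for Bak1, Bbc3 and Bad. Bad was at 32.4 to 35.6 TPM in repeat DMSO and 19.0 to 29.2 TPM in single DMSO libraries, but overlapped in counts. How many of all genes did not overlap was not counted. With limma-trend on log2(TPM + 1), which called 41.3% of all genes and on which scale the median of all tested genes was shifted by 0.14, Bad (0.53, adjusted p = 0.00128) and Bax (0.44, adjusted p = 0.0108) passed and Bcl2 (-0.53, adjusted p = 0.0525) and Bid (-0.32, adjusted p = 0.15) did not. All 7 calls held in each fit that left out 1 of the 9 libraries.

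With ibrutinib in both arms the same contrast gave 7 members, 4 higher and 3 lower, beside 38.4% of all genes, 18.7% higher and 19.6% lower. Bak1 was at 3090, 2679, 3535, 3523 and 3006 normalized counts in repeat ibrutinib replicates A to E and at 1895, 1866, 2011 and 1842 in single ibrutinib replicates A to D. It did not overlap (log2 fold change 0.73, SE 0.102, adjusted p = 1.54e-05). Bcl2l11 was at 12267, 13479, 10347, 7841 and 8420 in repeat and at 7121, 7183, 6976 and 5579 in single ibrutinib cells. Unlike with DMSO, Bcl2l11 did not overlap in counts, though it did in TPM, and here passed (0.64, SE 0.183, adjusted p = 0.00855). Mcl1 was at 11042, 11316, 9961, 10389 and 14202 in repeat and at 17868, 14622, 15080 and 15492 in single ibrutinib cells (-0.47, SE 0.101, adjusted p = 0.0011), where repeat replicate E came closest to the single libraries. Pmaip1 was higher by 0.37 (SE 0.121, adjusted p = 0.0201) and Bcl2l1 by 0.49 (SE 0.183, adjusted p = 0.0386). Bcl2 was at -0.33 (SE 0.12, adjusted p = 0.0357) and Bbc3 at -0.56 (SE 0.214, adjusted p = 0.0414). Bax, Bad and Bid did not pass, at 0.20, 0.20 and -0.13, and without repeat ibrutinib replicate E they were at 0.06, 0.03 and -0.19. The comparisons with DMSO and with ibrutinib share no library. They are not independent, since experiments A to D supplied both and both came from 1 fit.

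The calls of Bcl2, Bcl2l1, Bbc3 and Pmaip1 with ibrutinib did not hold in each fit that left out 1 library. Bcl2 was lost without repeat ibrutinib replicate C, D or E or any 1 single ibrutinib library (adjusted p 0.0578 to 0.117), Bcl2l1 without repeat replicate C, D or E or single replicate A, B or C (0.0517 to 0.105), Bbc3 without repeat replicate A, C or D or single replicate A, B or C (0.0788 to 0.117), and Pmaip1 without repeat replicate C (0.29, adjusted p = 0.0652). Between 3 and 7 members were called when 1 library was left out, the 3 without repeat ibrutinib replicate C, and 5 without replicate E. With the experiment as a block all 7 were called, beside 48.6% of all genes, with Bcl2l1 at 0.47 (adjusted p = 6.69e-05) and Bcl2 at -0.31 (adjusted p = 0.0141). With limma-trend on TPM 27.9% of all genes and 4 members were called, of which Bcl2l1, Bcl2l11 and Bak1 were among the 7 and Bad (0.36, adjusted p = 0.0292) was not; Mcl1 (-0.32, adjusted p = 0.128), Bcl2, Bbc3 and Pmaip1 lost their calls. Without a filter on low counts or with only the compared groups 5 members were called, without Bcl2 (adjusted p = 0.072 and 0.0689) and Bbc3 (0.0604 and 0.0601). With DESeq2 size factors Bbc3 (0.0514) and with the effective length offset Bcl2l1 (0.0501) lost its call. For fits that left out libraries the share of all genes called was not counted, here and below. The same holds for the fits without a filter, with only the compared groups, with size factors and with the offset.

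**Figure D2:**
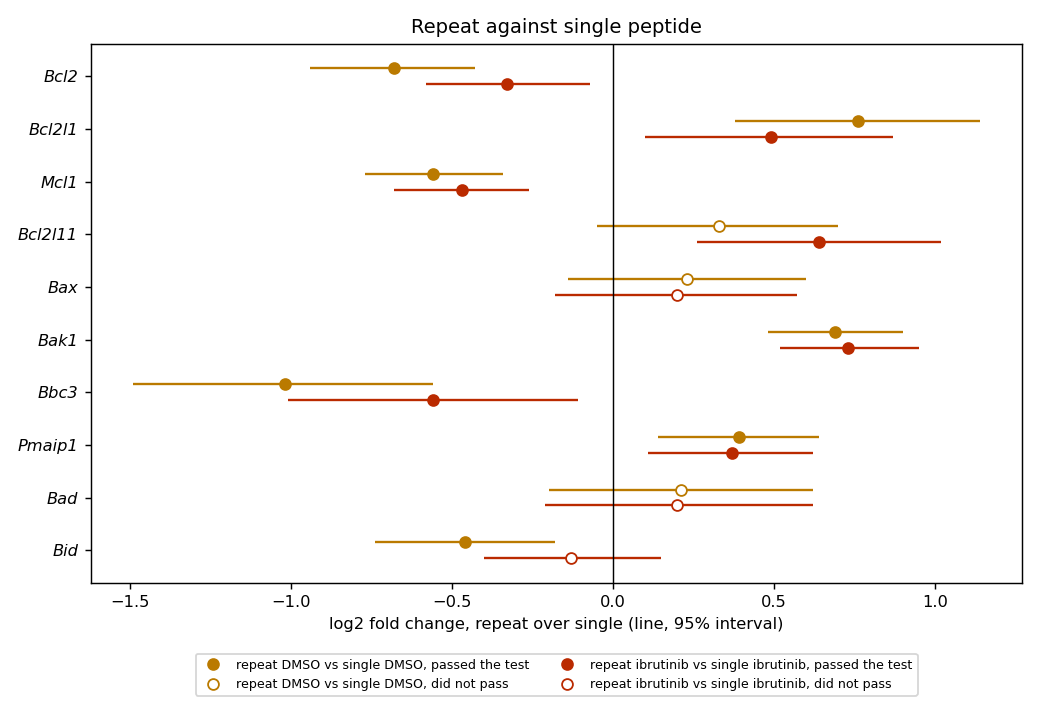
Log2 fold change of repeat over single peptide (x axis) for each member (y axis), with DMSO and with ibrutinib in both arms; filled points passed the test and lines are 95% intervals. Bak1 lay at 0.69 and 0.73, and Bbc3 at -1.02 and -0.56.

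Treated repeat cells were also set against single DMSO cells, which asks how far the family stood from rested, untreated cells after ibrutinib; this comparison shares its libraries with those above. Bak1 (0.46, SE 0.0947, adjusted p = 0.00101) and Bcl2l11 (0.51, SE 0.171, adjusted p = 0.0242) were higher, and Bcl2 (-0.34, SE 0.114, adjusted p = 0.0258) and Bbc3 (-0.63, SE 0.204, adjusted p = 0.0212) were lower. These 4 of 10 stood beside 32.9% of all genes, 2 higher beside 16.7% and 2 lower beside 16.2%. Bcl2l1 was at 0.31 (95% interval -0.05 to 0.67, adjusted p = 0.161), Mcl1 at -0.22 (-0.42 to -0.01, adjusted p = 0.0844) and Pmaip1 at 0.00 (-0.24 to 0.24, adjusted p = 0.987).

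Bak1 alone kept its call in each fit that left out 1 library. Bcl2 lost it without repeat ibrutinib replicate C, D or E or single DMSO replicate A, B or F (adjusted p 0.0512 to 0.0759), Bcl2l11 without repeat replicate A or B or single replicate B or D (0.0517 to 0.0598), and Bbc3 without repeat replicate C or D or single replicate B (0.0514 to 0.0894), which left 1 member without single replicate B, 2 without repeat replicate C or D, and 4 without replicate E. Bcl2l1 passed without single DMSO replicate F (0.52, adjusted p = 0.0102), Mcl1 without repeat replicate E (-0.31, adjusted p = 0.00687), and Bad without repeat replicate A (0.49, adjusted p = 0.0499) or single replicate D (0.56, adjusted p = 0.0189). The block gave 7 members, beside 40.7% of all genes, adding Bcl2l1 (0.50, adjusted p = 6.24e-05), Mcl1 (-0.30, adjusted p = 0.00236) and Bid (-0.28, adjusted p = 0.0203), and limma-trend on TPM gave 2, beside 23.3% of all genes: Bak1 (0.47, adjusted p = 0.0173) kept its call, Bad (0.56, adjusted p = 0.00101) gained one, and Bcl2, Bcl2l11 and Bbc3 lost theirs. With only the compared groups Bcl2 lost its call (adjusted p = 0.0562), and with the effective length offset Bbc3 did (-0.50, adjusted p = 0.107). The offset also gave Bad a call (0.51, adjusted p = 0.0472).

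Ibrutinib against DMSO in repeat peptide stimulated cells asks whether the drug changed the family while antigen was present; it shares its DMSO libraries with the repeat against single comparison. In edgeR without a block 0 of 10 members passed, beside 5.92% of all genes, while 6 members had an unadjusted p below 0.05, beside 21.6% of all genes. Mcl1 was at 9751, 8821, 8808 and 8556 normalized counts with DMSO and at 11042, 11316, 9961, 10389 and 14202 with ibrutinib. Every treated library was above every DMSO library in these counts, although in TPM the groups overlapped. The log2 fold change was 0.34 (SE 0.102, adjusted p = 0.0529). Bcl2 was at 17550, 13376, 14631 and 12819 with DMSO and 21246, 20828, 16827, 16707 and 16961 with ibrutinib, overlapping through DMSO replicate A (0.34, SE 0.121, adjusted p = 0.101). Bcl2l1 was at 1759, 2010, 2268 and 2817 with DMSO and at 1310, 1460, 1714, 1996 and 1658 with ibrutinib, with overlap between experiments but a lower treated library in each of A to D (-0.44, SE 0.181, adjusted p = 0.156). In TPM the Bcl2l1 groups narrowly did not overlap, with at most 37.95 TPM with ibrutinib and at least 38.87 TPM with DMSO. Pmaip1 was at 1083, 969, 1181 and 1131 with DMSO and at 811, 791, 1004, 885 and 655 with ibrutinib, overlapping through treated replicate C and DMSO replicate B (-0.40, SE 0.12, adjusted p = 0.0554).

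The direction within experiments was the same for several members. Bcl2l1 differed by -0.42, -0.46, -0.40 and -0.50 log2 CPM (ibrutinib minus DMSO) in experiments A to D, a spread of 0.041 (SD, n = 4) around -0.45. Bcl2 differed by 0.20 to 0.64, Mcl1 by 0.18 to 0.36, Bcl2l11 by 0.15 to 0.40, Bid by 0.02 to 0.46 and Pmaip1 by -0.42 to -0.23, each the same way in 4 of 4 experiments. Bbc3 was higher in 2 and lower in 2, from -0.29 to 0.96, and Bad moved by -0.07 to 0.18. With the experiment as a block, Bcl2 (0.37, SE 0.0975, adjusted p = 0.0181), Mcl1 (0.25, SE 0.0691, adjusted p = 0.0233) and Bcl2l1 (-0.45, SE 0.0742, adjusted p = 0.000759) were called, 3 of 10 beside 13.8% of all genes, and Pmaip1 was at -0.32 (adjusted p = 0.0519). Bax (-0.25, adjusted p = 0.169) and Bak1 (-0.21, adjusted p = 0.122) were not called.

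DESeq2's Wald test without a block called 9.51% of all genes and 3 members, Bcl2 (0.34, adjusted p = 0.0431), Mcl1 (0.34, adjusted p = 0.0152) and Pmaip1 (-0.40, adjusted p = 0.0226). Leaving out a library gave 0 to 2: Mcl1 (0.39, adjusted p = 0.0312) and Pmaip1 (-0.47, adjusted p = 0.0203) passed without repeat ibrutinib replicate C, Mcl1 without replicate D (0.37, adjusted p = 0.0424), Bcl2 without repeat DMSO replicate A (0.44, adjusted p = 0.0456), and none without replicate E.

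In single peptide stimulated cells 0 of 10 members passed, beside 3.04% of all genes, and 3 had an unadjusted p below 0.05, beside 13.5% of all genes. Mcl1 was at 14073, 12743, 12667, 13021 and 13566 normalized counts with DMSO and at 17868, 14622, 15080 and 15492 with ibrutinib. The groups did not overlap in these counts but did in TPM (log2 fold change 0.25, SE 0.101, adjusted p = 0.241). Bak1, at 1842 to 2011 with ibrutinib and 2013 to 2437 with DMSO, also did not overlap in counts but did in TPM (-0.27, SE 0.101, adjusted p = 0.194). Pmaip1 was at 826, 972, 872, 685 and 800 with DMSO and at 607, 694, 661 and 609 with ibrutinib, with DMSO replicate D inside the treated range (-0.37, SE 0.121, adjusted p = 0.128). The block called Mcl1 (0.26, SE 0.069, adjusted p = 0.0238) and Pmaip1 (-0.38, SE 0.108, adjusted p = 0.0352), 2 of 10 beside 9.09% of all genes, and DESeq2 called 1, Pmaip1 (-0.39, adjusted p = 0.0467), beside 4.99% of all genes. Bcl2 (-0.01, 95% interval -0.27 to 0.24) and Bid (-0.04, -0.32 to 0.24) were near 0.

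The difference between both ibrutinib effects was tested as an interaction. It passed in 0 of 10 members and in 1.26% of all genes, and 0 members had an unadjusted p below 0.05, beside 11.4% of all genes. The interval was -0.21 to 0.39 for Mcl1 and -0.38 to 0.33 for Pmaip1, whose estimates were 0.09 and -0.03. For Bcl2 it was 0.36 (95% interval 0.00 to 0.71, adjusted p = 0.442). With the block Bcl2l1 passed (-0.48, SE 0.105, adjusted p = 0.0137), 1 of 10 beside 5.54% of all genes: within experiments it differed by -0.50 to -0.40 log2 CPM in repeat cells and by -0.02 to 0.07 in single cells. Without the block its estimate was -0.27 (SE 0.257, adjusted p = 0.807).

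**Figure D3:**
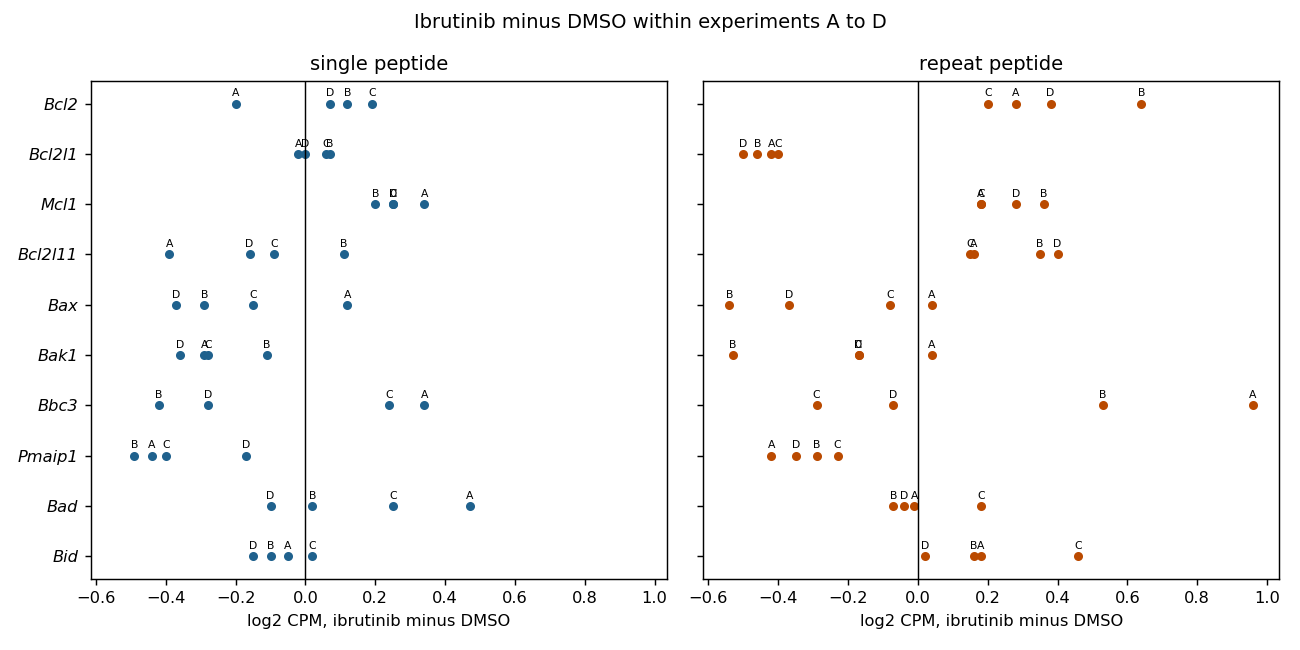
Difference in log2 CPM, ibrutinib minus DMSO (x axis), for each member (y axis) within experiments A to D, in single (left) and repeat (right) peptide stimulated cells; each point is 1 experiment. Bcl2l1 lies between -0.50 and -0.40 in repeat cells and near 0 in single cells, and Mcl1 lies above 0 and Pmaip1 below 0 in both.

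Ratios between members within a library set a survival gene against a partner, in TPM and as a description. Bcl2 to Bcl2l1 was 5.64 ± 1.29 (SD, n = 5) in single DMSO, 6.03 ± 0.71 (n = 4) in single ibrutinib, 2.06 ± 0.763 (n = 4) in repeat DMSO and 3.48 ± 0.994 (n = 5) in repeat ibrutinib cells. The repeat DMSO libraries, at 1.25 to 3.08, all lay below the single libraries, at 4.07 to 7.33. Bcl2 to Bcl2l11, whose proteins bind each other, was 1.47 to 2.33 in the single DMSO and 0.756 to 1.22 in the repeat DMSO libraries. It was 0.896 to 1.27 in repeat ibrutinib cells, within much of the same range. Bcl2 to Bak1 was 2.97 ± 0.608 in single DMSO, 1.18 ± 0.346 in repeat DMSO and 1.74 ± 0.418 in repeat ibrutinib cells. Mcl1 to Pmaip1 was 12.1 ± 1.76 in single DMSO, 18.4 ± 2.75 in single ibrutinib, 6.18 ± 0.669 in repeat DMSO and 10.7 ± 3.4 in repeat ibrutinib cells. With ibrutinib every library lay above every DMSO library under each stimulation, from 7.39 up against at most 6.79 in repeat cells and from 15.7 up against at most 14.5 in single cells.

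Bcl2l1 made up 7.74% ± 1.85 of the summed TPM of the 3 survival members in single DMSO, 6.44% ± 0.939 in single ibrutinib, 18.4% ± 4.98 in repeat DMSO and 11.5% ± 2.41 in repeat ibrutinib cells. The sum itself was 318 ± 57.7 TPM in single DMSO and 260 ± 31.4 in repeat DMSO cells. The sum of Bax and Bak1 was 269.8 ± 35.1 and 383 ± 50.1 TPM, and that of the 5 BH3-only genes 170.3 ± 23 and 194 ± 24.9 TPM. These sums were not tested. Between these groups Bax did not pass in edgeR on counts (0.23, adjusted p = 0.285), though it did with limma-trend on TPM. On the log2(TPM + 1) scale the median of all tested genes was shifted by 0.14.

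**Figure D4:**
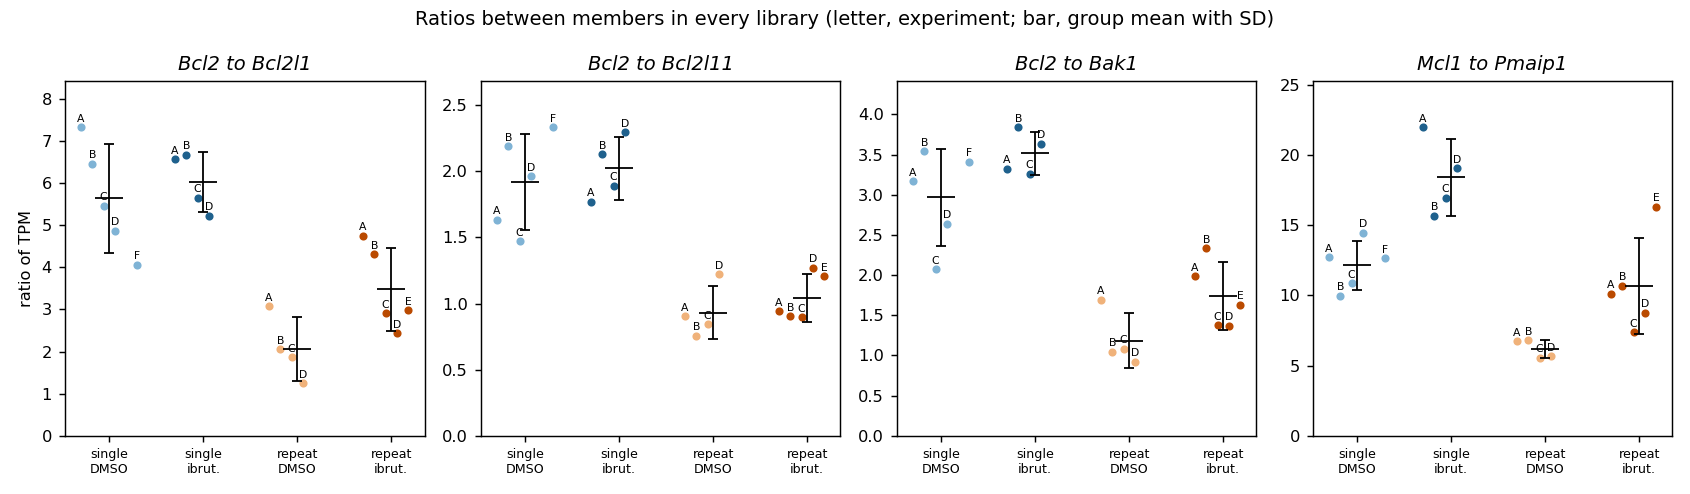
Ratio of TPM (y axis, from 0) of Bcl2 to Bcl2l1, Bcl2 to Bcl2l11, Bcl2 to Bak1 and Mcl1 to Pmaip1 in the 4 groups (x axis); points are libraries lettered by experiment and bars are means with SD. Every repeat DMSO library lies below every single DMSO library in all 4 panels.

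Across the 18 libraries, as a description of log2 CPM that shares the group differences, Bak1 ran against Mcl1 (Pearson r = -0.91) and Bcl2 (-0.87), and Pmaip1 against Mcl1 (-0.89). With group means removed these were -0.43, -0.61 and -0.69. Bax and Bad ran together (0.71, and 0.78 with group means removed), as did Bcl2l11 and Bcl2 only after removal (-0.22 and 0.60). Bcl2 ran against Bax (-0.70 and -0.83) and Bad (-0.51 and -0.67). Only after removal Bcl2l11 ran against Bad (-0.19 and -0.68) and Bcl2l1 (0.11 and -0.66). The genes outside the members whose pattern was most like Bbc3 were Esrra (r = 0.947 over 18 libraries, 0.854 with group means removed), Gm28512 (0.924, 0.804) and Gm16845 (0.911, 0.771). Those most like Bcl2l1 were Mpzl3 (0.902, 0.752), Clgn (0.901, 0.758) and Stx11 (0.897, 0.781), and those most like Bak1 were Rad18 (0.975, 0.781), Ift57 (0.971, 0.74) and Rpa2 (0.967, 0.737).

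Of 15 other BCL2 family genes, 10 were tested. In repeat against single DMSO cells 4 rose and 0 fell, 40% of those tested. Counts of the lists from here on are to be read beside the share of all genes called. Without the block this was 47.0% with repeat peptide (22.8% higher and 24.2% lower), 5.92% with ibrutinib in repeat cells and 3.04% in single cells. With the experiment as a block it was 53.6%, 13.8% and 9.09% in the same order. Bcl2a1b and Bcl2a1d encode copies of the survival protein A1, which NF-κB induces after antigen, and their sequences are near identical, so how reads were split between them is uncertain. Bcl2a1b was at 49.0, 41.1, 117, 69.4 and 51.1 normalized counts in single DMSO and at 1377, 1530, 1573 and 1724 in repeat DMSO cells (log2 fold change 4.57, SE 0.378, adjusted p = 2.43e-08), and Bcl2a1d rose by 5.05 (SE 0.486, adjusted p = 1.55e-07). Bcl2a1a was not tested, and was listed at 0 TPM in all but 2 libraries. Summed over the 3 copies the level was 3.53 to 10.4 TPM in single DMSO and 213 to 243 TPM in repeat DMSO cells, where it came close to the 260 ± 31.4 TPM of Bcl2, Bcl2l1 and Mcl1 together. Repeat ibrutinib replicates A and B were at 655 and 675 normalized counts of Bcl2a1b and replicates C, D and E at 1580, 1569 and 2267, and ibrutinib did not pass (-0.20, SE 0.326, adjusted p = 0.77). Bnip3, a BH3-like gene of mitophagy and low oxygen, rose by 2.34 (SE 0.319, adjusted p = 8.77e-06) and the BH3-only gene Bmf by 1.40 (SE 0.318, adjusted p = 0.00117) with repeat peptide. Bcl2l2, a survival gene, was at 0.23 (adjusted p = 0.326) and passed with the experiment as a block (0.42, adjusted p = 0.0208). With ibrutinib 0 of the 10 passed in repeat cells without the block and Bnip3 (-0.81, adjusted p = 0.0459) with it, and 1 rose in single cells in both fits, Bnip3l (0.44, SE 0.12, adjusted p = 0.0499) in single cells.

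**Figure D5:**
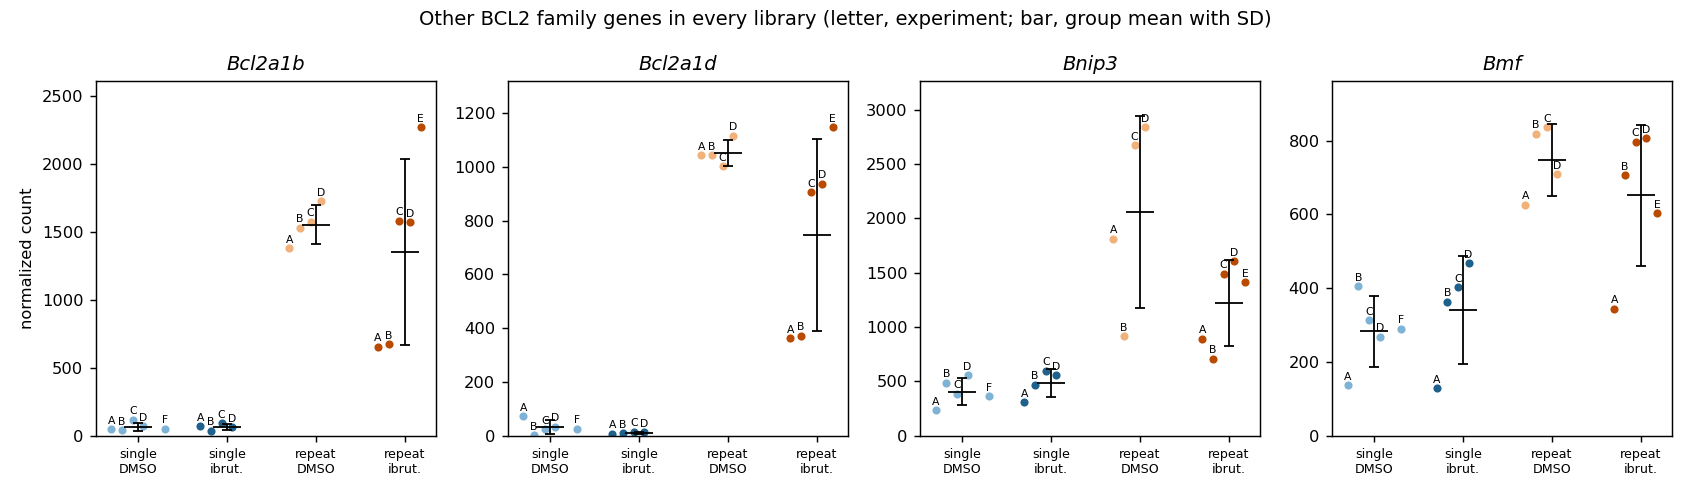
Normalized counts (y axis, from 0) of Bcl2a1b, Bcl2a1d, Bnip3 and Bmf in the 4 groups (x axis); points are libraries lettered by experiment and bars are means with SD. Bcl2a1b lies at 1377 to 1724 in repeat DMSO and 41.1 to 117 in single DMSO libraries, and repeat ibrutinib replicates A and B lie below C, D and E.

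Downstream of the pore, all 15 genes of the mitochondrial death machinery were tested, and with repeat peptide 6 rose and 4 fell, 66.7% of the list; with the block 7 rose and 4 fell, adding Cycs (0.49, adjusted p = 0.00124), the gene of cytochrome c. Htra2, a protease released from mitochondria, rose by 0.83 (adjusted p = 1.83e-06), as did Apaf1, the scaffold of the apoptosome, by 0.75 (adjusted p = 3.53e-05), and the nuclease gene Endog fell (-0.84, adjusted p = 0.00361). With ibrutinib 1 of the 15 rose in repeat cells, the nuclease gene Dffb (0.34, adjusted p = 0.0204), and 0 fell, while in single cells 0 rose and 1 fell. With the block 1 rose and 1 fell in repeat cells, and 0 rose and 2 fell in single cells. Of 5 inhibitor of apoptosis genes 40% passed with repeat peptide. Birc5, which is also a gene of cell division, rose with repeat peptide (1.57, adjusted p = 9.14e-05) and fell with ibrutinib in single cells (-1.18, adjusted p = 0.0257), and Birc6 fell with repeat peptide (-0.71, adjusted p = 0.00392). The block added Birc2 with repeat peptide (-0.24, adjusted p = 0.0207), and Birc2 (0.29, adjusted p = 0.0301) and Birc6 (0.43, adjusted p = 0.0277) with ibrutinib in repeat cells.

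Of 16 genes of p53 and its targets, 6 rose and 3 fell with repeat peptide, 56.2% of the list; the block added Btg2 (-0.31, adjusted p = 0.0177). Cdkn1a, the cell cycle inhibitor p21, rose by 4.76 (SE 0.508, adjusted p = 5.25e-07), Perp by 3.72 (adjusted p = 4.81e-07), Phlda3 by 1.86 (adjusted p = 0.000463) and Sesn2 by 1.13 (adjusted p = 3.93e-05), while Bbc3, also a p53 target, was lower as given above and Pmaip1, another, was higher. With ibrutinib in repeat cells 4 fell and 1 rose, 31.2% of the list, and with the block 6 fell and 2 rose, adding Ccng1 (-0.47, adjusted p = 0.0068), Phlda3 (-1.09, adjusted p = 0.0096) and Trp53inp1 (0.40, adjusted p = 0.0299). Cdkn1a was at 1514, 2083, 3511 and 5019 normalized counts with DMSO and at 210, 340, 831, 1028 and 233 with ibrutinib (-2.51, SE 0.456, adjusted p = 0.00242), Perp was at -1.30 (adjusted p = 0.0328), Sesn2 at -0.80 (adjusted p = 0.00982) and Zmat3 at -0.68 (adjusted p = 0.0144). In single cells 2 rose, Sesn1 (0.61, adjusted p = 0.044) and Btg2 (0.53, adjusted p = 0.0378). Sesn2 was the 1 gene of the list whose ibrutinib effects differed between stimulations (interaction -1.07, adjusted p = 0.0412).

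Of 14 IL-7, IL-15 and FOXO genes, 2 rose and 7 fell with repeat peptide, 64.3% of the list. Il2rb, the receptor chain shared by IL-2 and IL-15, rose by 1.45 (adjusted p = 1.19e-08). Foxo1 was at 7149, 6670, 5803, 6552 and 7042 normalized counts in single DMSO and at 2932, 2803, 2605 and 2160 in repeat DMSO cells (-1.34, SE 0.136, adjusted p = 3.01e-07), and the survival kinase gene Pim1 (-1.09, adjusted p = 4.6e-07) and Jak1 (-0.97, adjusted p = 5.32e-06) fell. With ibrutinib in repeat cells Il7r (0.63, adjusted p = 0.0105), Pim1 (0.59, adjusted p = 0.00392) and Foxo1 (0.47, adjusted p = 0.04) rose and Il2rb fell (-0.64, adjusted p = 0.00183), 28.6% of the list; the block added Il2rg (0.28, adjusted p = 0.0341) and Jak1 (0.38, adjusted p = 0.0222). In single cells Il7r rose (0.70, adjusted p = 0.00899) and Pim2 fell (-0.59, adjusted p = 0.0161), and the block added Foxo1 (0.36, adjusted p = 0.018), Foxo4 (0.40, adjusted p = 0.0164) and Jak3 (-0.43, adjusted p = 0.00578).

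Of 18 regulators and partners of the proteins, 17 were tested. With repeat peptide 3 rose and 4 fell, 41.2% of those tested. Among the 3 were the co-chaperone gene Bag3 (1.16, adjusted p = 0.00131) and Ywhae (0.61, adjusted p = 0.000373), whose 14-3-3 family binds phosphorylated BAD. The 4 that fell included Huwe1 (-0.58, adjusted p = 0.00688), which encodes a ubiquitin ligase of MCL1, and Mapk8 (-0.52, adjusted p = 0.000491). With ibrutinib 0 of the 17 passed in repeat cells without the block and Ywhae (-0.32, adjusted p = 0.0217) with it. In single cells Ywhae (-0.33, adjusted p = 0.0257) passed with the block only, and Casp8 in both fits, the caspase that cuts BID, at 2059 to 2365 normalized counts against 2800 to 3216 with DMSO (-0.44, SE 0.0726, adjusted p = 0.00355).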

How the data were processed

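The polyadenylated, strand-specific, paired-end libraries were processed by the authors, who trimmed the reads, ran RSEM 1.3.1 with the STAR aligner on GRCm38 and an Ensembl annotation, and deposited a table of genes per library. The deposited expected counts, RSEM's estimates of reads from each gene, were rounded to whole numbers. Its TPM values, deposited by the authors, are scaled per gene length and library and served for levels and 1 alternative, and the deposited effective length in bases for another. The deposited FPKM values, which RSEM scaled by gene length and library, and the transcript lengths were not used. The authors' own DESeq2 comparisons were not used.

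Genes were named from GENCODE M21 (45143 of 45706 matched), and the 27903 protein-coding or lncRNA genes held 98.5% of all counts. In R 4.3.3, edgeR 4.0.16 was run with filterByExpr (12255 genes left), TMM, glmQLFit (robust) and glmQLFTest on all 4 groups in 1 fit, with p-values adjusted by Benjamini-Hochberg over all genes tested. limma 3.58.1 and DESeq2 1.42.0 gave alternatives. Intervals are at 95%. The fits were tested on simulated data. Library totals are given in the report. The labels do not say that libraries came from separate mice, and the p-values measure the spread between these libraries.

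The members, the further gene lists and the tests were chosen with earlier results of these data known. All 10 members are named; of each list, counts are given and at most the 4 called genes with the largest log2 fold change per comparison, beside close copies and survival genes of the family and genes called in the blocked fit alone. The genes most alike were taken for the 3 members with the largest change with repeat peptide. Bcl2l11 and Bbc3 promoters were picked after the search.

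The experiment of a library comes from the genotype entry of the labels, so the block would also carry any difference in genotype. All 24 pairs of libraries of the same experiment deviated together from their group means (r 0.16 to 0.494, median 0.325), against -0.44 to 0.404 (median -0.0765) in the 97 other pairs, so the experiment pairs the libraries, and a blocked fit is given where it changes a call of a member; for the further lists it is given for repeat against single DMSO and for ibrutinib in repeat and single cells. Counts of libraries of a group differed beyond sampling noise, so none was a copy of another. Some genes of the further lists are not reported here.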

Additional observations from a re-analysis of the deposited data

Results flagged for a closer look

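Among 40 sets of 1 member in 1 group, 4 held a library whose gap to the nearest other, divided by the range of the group, passed Dixon's 95% limit; chance gives about 1 in 20. Bcl2l11 was at 5578.9 normalized counts in single ibrutinib replicate D, against 6976.4 to 7183.3 in the other libraries of its group. Bbc3 was at 1014.7 in the same library, against 1414.6 to 1434.6. Bak1 was at 2013.1 in single DMSO replicate B, against 2321 to 2436.8. Bak1 was also at 3006.7 in repeat DMSO replicate A, against 3871 to 3984. The effect of ibrutinib on Bcl2l1 differed between repeat and single peptide stimulated cells when the experiment was a block (interaction -0.48, SE 0.105, adjusted p = 0.0137, edgeR), with a lower level in 4 of 4 experiments of repeat cells and in 2 of 4 of single cells; without the block it was -0.27 (adjusted p = 0.807).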

How the results depend on the processing

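Over all alternatives and left-out libraries, 1083 of 1230 values of the members kept direction and call, 52 lost a call, 30 gained one and 65 changed sign. Those 65 came from 12 results, with log2 fold changes of at most 0.15 in size and adjusted p of 0.492 or more. The number of members called moved by more than 1.5 times as follows; the cause was not tested. With the replicate block (experiment), 3 were called for ibrutinib in repeat cells, 2 in single cells, 7 for repeat ibrutinib against single DMSO and 1 for the interaction. DESeq2's Wald test called 3 in repeat and 1 in single cells, and limma-trend on TPM called 4 for repeat against single ibrutinib and 2 for repeat ibrutinib against single DMSO. By less than that, repeat against single ibrutinib went from 7 to 5 with no filter or only the compared groups and to 6 with DESeq2 size factors or the length offset, and repeat ibrutinib against single DMSO from 4 to 3 with only the compared groups. Leaving out 1 library gave 0 to 2, 3 to 7 and 1 to 4 for repeat ibrutinib against repeat DMSO, single ibrutinib and single DMSO. Without E and F, an alternative chosen after seeing the data, 0, 0, 7, 6, 5 and 0 members were called for ibrutinib in repeat cells, in single cells, repeat against single DMSO, repeat against single ibrutinib, repeat ibrutinib against single DMSO and the interaction. The share of all genes called was counted for the block, the Wald test and limma-trend, and not for the other alternatives. A change in the members alone and a change in the whole test cannot be told apart there.

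Sign changes were as follows. For repeat ibrutinib against single DMSO, Pmaip1 was at 0.00 with DESeq2 size factors, with no filter, with only the compared groups, with the Wald test and with the effective length offset, at 0.01 with all gene types, at 0.06 with the block or without E and F and at 0.05 with limma, and Bax was at -0.11 with the block and -0.12 without E and F. For ibrutinib in single cells, the block and leaving out E and F gave 0.05 for Bcl2 and 0.03 for Bcl2l1, and Bbc3 was at 0.15 with the length offset and 0.09 with limma. For the interaction, Bad was at 0.01 with DESeq2 size factors or the Wald test and 0.02 with no filter, and the block and leaving out E and F gave -0.01 for Mcl1 and 0.06 for Pmaip1. Bid was at 0.02 with limma for repeat against single ibrutinib.

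Leaving out 1 library moved the interaction from -0.18 to 0.11 for Bad, -0.04 to 0.12 for Bak1, -0.17 to 0.10 for Bax, -0.01 to 0.18 for Mcl1 and -0.10 to 0.05 for Pmaip1. It moved repeat ibrutinib against single DMSO from -0.03 to 0.21 for Bax and -0.08 to 0.07 for Pmaip1, and ibrutinib in single cells from -0.21 to 0.02 for Bax, -0.14 to 0.07 for Bbc3, -0.07 to 0.05 for Bcl2 and -0.26 to 0.03 for Bcl2l1. With 4 or 5 libraries a group, the 95% intervals of the members' ibrutinib effects in repeat cells were as narrow as -0.44 to -0.02 (Bak1) and as wide as -0.06 to 0.85 (Bbc3).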
